A study of Mus musculus with 20 samples.

Results

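The nuclear genes of the respiratory chain were taken from the kidney counts by symbol, as every symbol that starts with Nduf, Uqcr, Cox4 to Cox8 or Atp5. This gave 88 genes of the 24421 symbols counted. By symbol, 45 belong to complex I, 8 to complex III, 18 to complex IV and 17 to complex V. The symbol does not always match the enzyme. Ndufa4 and its paralog Ndufa4l2 carry a complex I symbol although NDUFA4 is a subunit of complex IV, Cox7a2l encodes a factor that joins complexes into supercomplexes, and the products of Atp5s and Atp5sl are not subunits of the ATP synthase. The chain subunits made from mitochondrial DNA are not among the members, and 0 of the symbols counted start with mt-.

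Complexes I, III and IV sit in the inner mitochondrial membrane, pass electrons from NADH to oxygen and pump protons as they do so, and complex V, the ATP synthase, uses the proton gradient to make ATP. Fumarate hydratase, the product of Fh1, acts in the tricarboxylic acid cycle, which supplies the NADH that complex I oxidises. The cells of the proximal tubule are packed with mitochondria, because reabsorption there runs on ATP from respiration, so that the nuclear genes of the chain are abundant transcripts in whole kidney.

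The libraries were made from pieces of snap-frozen kidney of mice on a mixed C57BL/6 129/SvJ background, 12 weeks old at induction, with 5 libraries in each of 4 groups: Fh1-/- and Fh1+/+, each collected 5 or 10 days after induction (day 5 and day 10). Fh1-/- mice carried Fh1 fl/fl, with exons 3 and 4 between LoxP sites, and R26 Creert2/Creert2, which drives an inducible Cre from the ubiquitous Rosa26 promoter, so the deletion was not limited to a cell type. Their Fh1+/+ littermates also carried R26 Creert2/Creert2, and all mice received 3 injections of 2 mg tamoxifen, so that Cre and tamoxifen are shared by all groups. The labels do not tie each library to an animal, and the p-values therefore cover only how much libraries of a group vary, which may in part be technical. Each group held libraries with a summed Y-linked level of at most 1.02 CPM and others with at least 106 CPM. No group thus came from a single animal, but the number of animals is not given by the labels.

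Of the 88 members, 70 had an entry in the RefSeq promoter table (GRCm38.p6), which gives 250 bases before and 50 after the start of a gene, out of 27025 genes with one. These windows were searched on both strands for 5 strings, none of which contains another. The NRF1 string (GCGCA, any base, then GCGC), named for a factor that drives many nuclear genes of mitochondria, stood in 17 of 70 members (24.3%, against 5.19% of all 27025 promoters). Of these 17, 9 were in complex I, 1 in complex III, 1 in complex IV and 6 in complex V. The YY1 string AAGATGGCG stood in 7 members (10.0% against 1.64%), the ETS string CCGGAAGT of GABPA in 5 (7.14% against 4.31%), the estrogen-related receptor string TCAAGGTCA in 1 (1.43% against 0.466%) and the hypoxia-inducible factor string ACGTGC in 4 (5.71% against 6.68%). A match describes these letters only and does not show that a factor binds. Of the 7 members whose libraries did not overlap between genotypes at day 10 (given below by name), Ndufaf4, Atp5k and Cox7a1 held a match, Ndufab1 and Uqcrfs1 held none of the 5 strings, and Ndufaf6 and Ndufa4l2 had no entry. The 3 windows with a match are printed 5′ to 3′ on the strand of the gene, with the match in capitals. In Ndufaf4 (chr4:24897833-24898132, plus strand) the NRF1 string begins 113 bases before the start, in Atp5k (chr5:108434350-108434649, minus strand) it begins 50 bases before the start, and in Cox7a1 (chr7:30183921-30184220, plus strand) the hypoxia-inducible factor string lies on the opposite strand, at base 8 after the start.
Ndufaf4: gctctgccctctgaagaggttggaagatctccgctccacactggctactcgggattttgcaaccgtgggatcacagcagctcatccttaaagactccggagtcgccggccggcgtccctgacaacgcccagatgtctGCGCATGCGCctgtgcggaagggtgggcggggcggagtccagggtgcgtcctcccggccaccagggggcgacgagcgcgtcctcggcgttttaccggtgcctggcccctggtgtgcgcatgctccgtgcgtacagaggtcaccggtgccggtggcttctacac
Atp5k: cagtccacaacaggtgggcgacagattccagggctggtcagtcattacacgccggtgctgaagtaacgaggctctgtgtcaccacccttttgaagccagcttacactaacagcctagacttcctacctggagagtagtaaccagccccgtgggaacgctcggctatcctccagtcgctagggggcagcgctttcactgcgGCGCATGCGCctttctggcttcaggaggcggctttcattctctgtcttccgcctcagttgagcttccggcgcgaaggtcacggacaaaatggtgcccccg
Cox7a1: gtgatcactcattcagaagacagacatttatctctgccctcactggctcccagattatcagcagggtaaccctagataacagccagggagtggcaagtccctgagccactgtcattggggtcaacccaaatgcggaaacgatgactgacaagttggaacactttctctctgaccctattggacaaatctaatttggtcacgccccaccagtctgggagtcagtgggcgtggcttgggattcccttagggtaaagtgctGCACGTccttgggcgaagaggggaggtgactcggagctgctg

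Depth ranged from 16654829 to 25001294 counts per library (median 18547503). Fh1-/- day 10 replicates 1 and 3 stood apart from the other 18 libraries: their scores on the first principal component were 125 and 128, against -31.3 to 30.3 elsewhere, and Spp1, a transcript of injured tubules, took 10.3% and 9.5% of their counts against at most 1.3% elsewhere. For the sums, the complexes and the gene lists at day 10, values are given with and without these libraries, and for single members where leaving both out moved the log2 fold change by over 1.5 times. Leaving them out was chosen after seeing the data, and it does not leave a group free of injury markers. Fh1-/- day 10 replicates 4 and 5 scored 29.9 and 30.3 on the first principal component. Spp1 took 1.19% and 1.3% of their counts. A list of 6 tubular injury markers summed to 133600, 2714, 126000, 12100 and 13230 CPM in Fh1-/- day 10 replicates 1 to 5. In Fh1+/+ day 10 libraries this list summed to 831.9 to 2041 CPM. Counts over the whole Fh1 gene ran from 248 to 413 CPM (counts scaled by TMM to the size of each library) in the Fh1-/- day 10 libraries and from 222 to 259 CPM in the Fh1+/+ day 10 libraries, and at day 5 from 199 to 243 and from 215 to 266 CPM. These counts include exons outside the deleted part and so do not check the deletion, and the genotype rests on the labels. A list of 10 proximal tubule markers summed to between 4248 and 17280 CPM in Fh1-/- day 10 libraries, lowest in replicates 1 and 3, against 13920 to 22050 CPM in Fh1+/+ day 10 libraries, with none of the markers at 0, and 8 of the 10 had a log2 fold change below 0 (median -0.48, 0 called by edgeR). Without Fh1-/- day 10 replicates 1 and 3, 7 of these 10 were below 0, with a median of -0.18.

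At day 10, transcripts of all 4 complexes were lower on average in Fh1-/- kidneys, by small amounts, and edgeR called no single member, while DESeq2 called 4. Summed over all 88 members, the level was 19530 ± 1360 CPM in Fh1-/- libraries (SD, n = 5) against 21800 ± 2064 CPM in Fh1+/+ libraries, and the ranges overlapped (17530 to 21130 against 19570 to 24390 CPM). The overlap came from Fh1-/- replicates 1 and 3, at 20390 and 21130 CPM. Replicates 2, 4 and 5, at 19310, 17530 and 19290 CPM (mean 18710 ± 1022, n = 3), were below every Fh1+/+ library. Complex V, with the highest sum, was at 8307 ± 308 against 9534 ± 845 CPM, with a range of 7874 to 8722 against 8651 to 10520 CPM. For complex I the sums were 5682 ± 549.9 against 6283 ± 679 CPM, for complex III 2234 ± 197 against 2482 ± 258 CPM and for complex IV 3308 ± 481 against 3504 ± 298 CPM. The Fh1-/- mean was 87.1% of the Fh1+/+ mean for complex V, 90.4% for complex I and 94.4% for complex IV, with complex III just below complex I. Without replicates 1 and 3 the shares were 87.0% for complex V, 84.7% for complexes I and III and 85.4% for complex IV. Which complex differed most thus depended on these 2 libraries. In complexes I, III and IV they were also the highest of the Fh1-/- libraries. Of the other 3 Fh1-/- libraries, none reached the lowest Fh1+/+ library in complex III (1977 to 2178 against 2202 CPM), and 1 did in each of complexes I, IV and V. In whole kidney, fewer cells of a type rich in these transcripts and less of the RNA per cell cannot be told apart, and the part of the lower proximal tubule markers in these sums was not tested. Within Fh1+/+ day 10, replicates 2 and 3, low in Y-linked counts, had the lowest sums over all members (20300 and 19570 CPM against 21260 to 24390 CPM). So did Fh1-/- day 5 replicates 2 and 5 (23280 and 21160 CPM against 23940 to 24850 CPM). Fh1+/+ day 5 replicate 1 did not, at 24070 CPM within 20300 to 26410 CPM. Nor did Fh1-/- day 10 replicates 1, 3 and 5, at 20390, 21130 and 19290 CPM against 19310 and 17530 CPM in replicates 2 and 4. The part of sex in these sums was not tested.

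**Figure D1:**
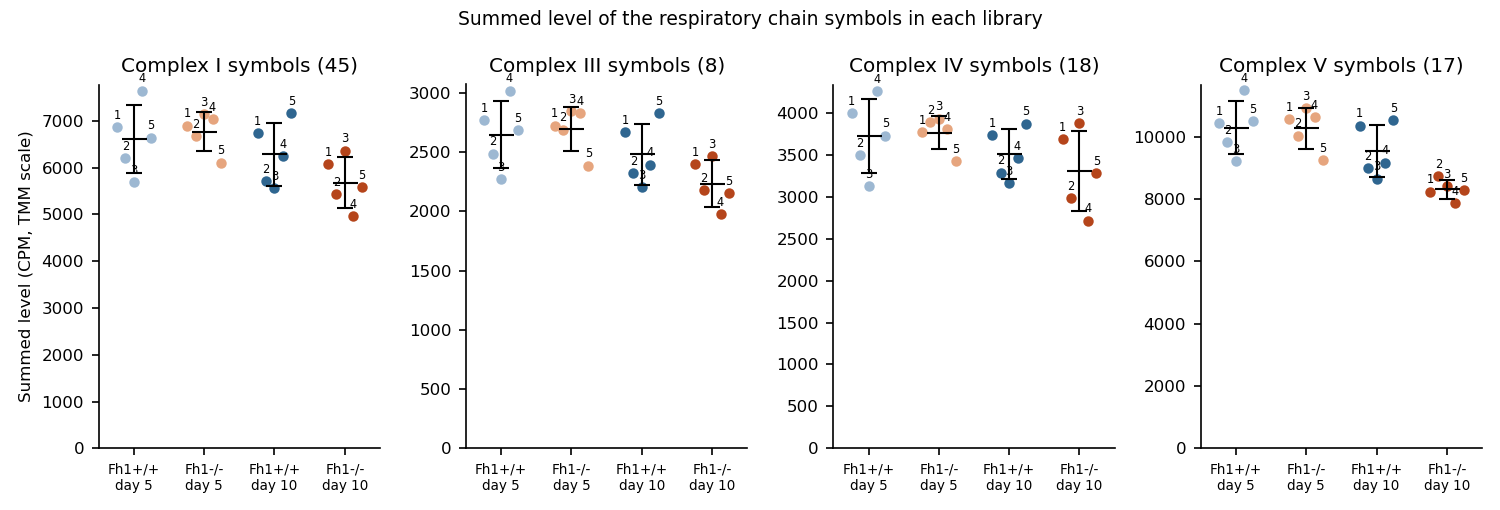
Summed CPM (vertical axis) of the members of complexes I, III, IV and V in each of the 20 libraries, grouped by genotype and day, with the mean and SD of each group. The Fh1-/- day 10 libraries of complex V lie between 7874 and 8722 CPM and their Fh1+/+ counterparts between 8651 and 10520 CPM, and at day 5 the genotypes share their range in every complex.

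Gene by gene, 83 members passed the filter on low counts and were tested at day 10, all but Cox6a2, Cox7b2, Cox8c, Atp5g2 and Atp5l. The low level of Atp5l is uncertain. It had 126 reads over 20 libraries, and 68.5% of the 50-base stretches of its coding transcripts are shared with other genes. A gene was called where the edgeR adjusted p was under 0.01 and the absolute log2 fold change over 0.58, which held for 0.0557% of 14360 genes tested and for 0 members. At an unadjusted p under 0.05, edgeR had 14 members lower and 1 higher in Fh1-/- kidneys, 10 of the 14 in complex I, where 11.9% of all genes tested were lower and 15.1% higher. DESeq2 with the same thresholds called 4 members as lower (Ndufa4l2, Ndufab1, Cox6a2 and Cox7a1) and 0 as higher, where it called 1.95% and 3.26% of 15945 genes. The direction was shared more widely than the calls. The log2 fold change was below 0 for 74 of 83 members, with a median of -0.15, against 50.1% of all genes tested and a median of -0.0007. By complex the median was -0.14 for complex I (41 of 45 below 0), -0.17 for complex III (8 of 8), -0.11 for complex IV (11 of 15) and -0.21 for complex V (14 of 15). Without Fh1-/- day 10 replicates 1 and 3 these medians were -0.26, -0.29, -0.26 and -0.24, with 43 of 45, 8 of 8, 12 of 15 and 15 of 15 below 0. Complex V then no longer had the lowest median. In that setting the median over the 83 members was -0.26, with 78 below 0, 37 lower at an unadjusted p under 0.05 (8.33% of all genes) and still 0 called, beside 0.0135% of all genes.

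**Figure D2:**
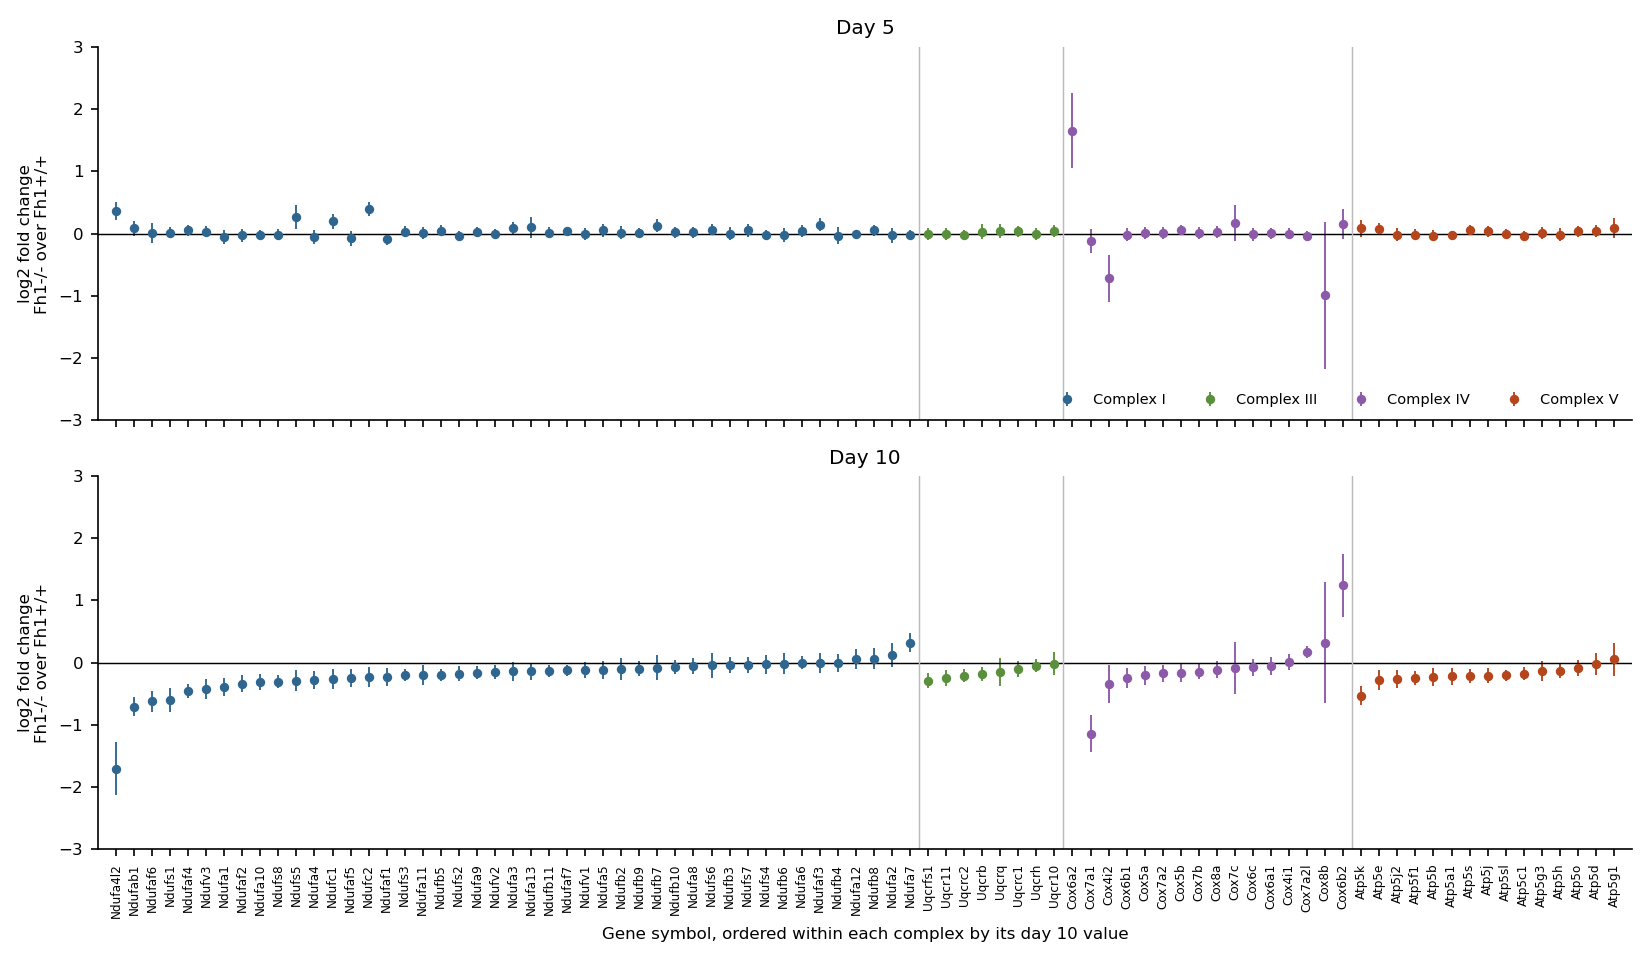
Log2 fold change of Fh1-/- against Fh1+/+ kidneys (vertical axis) for each member (horizontal axis) with its standard error, at day 5 and day 10, ordered by complex. At day 10, 74 of 83 members lie below 0, while at day 5 they scatter around 0 (35 of 84 below). Cox6a2 has no point at day 10, where it was under the filter.

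In complex I, the 7 core subunits of the matrix arm, which carry electrons from NADH to ubiquinone, all had log2 fold changes below 0 at day 10 (median -0.18, from -0.60 to -0.04). Ndufs1, the largest iron-sulfur subunit (chr1:63143596-63176833), was the lowest of them. Its level was 158, 282, 142, 221 and 221 CPM in Fh1-/- replicates 1 to 5 and 330.3, 310.2, 266, 286 and 352 CPM in Fh1+/+ replicates 1 to 5. The lowest values were those of replicates 1 and 3, and only replicate 2 reached into the Fh1+/+ range. The log2 fold change was -0.60 ± 0.19 (SE, edgeR adjusted p = 0.0907), and -0.34 without replicates 1 and 3. Ndufs8, an iron-sulfur subunit close to the ubiquinone site, ran at 125 to 156 CPM against 151 to 185 CPM (log2 fold change -0.31 ± 0.11, edgeR adjusted p = 0.112). Ndufv1, which binds NADH and the flavin, differed less, at 369.8 to 430.2 CPM against 353 to 497 CPM (-0.12 ± 0.13, edgeR adjusted p = 0.546).

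Among the 29 accessory subunits of complex I, the median was -0.11, with 25 below 0 (-0.24 and 27 without replicates 1 and 3), and the range ran from -0.71 to 0.32 on the log2 scale. The low end was Ndufab1, the mitochondrial acyl carrier protein (chr7:122085403-122101886), which also serves fatty acid synthesis in mitochondria. It was at 3.99, 5.54, 4.62, 4.51 and 5.81 CPM in Fh1-/- day 10 replicates 1 to 5 and at 7.08, 8.16, 8.84, 8.16 and 7.69 CPM in Fh1+/+ replicates. Every Fh1-/- library was below every Fh1+/+ library, replicates 2, 4 and 5 included. The log2 fold change was -0.71 ± 0.15, with an edgeR adjusted p of 0.0415, the smallest among members, and -0.58 without replicates 1 and 3. Its counts are uncertain, since up to 82.9% of the 50-base stretches of a single coding transcript of it (9.53% over its transcripts together) are shared with other genes, and only 2849 reads over 20 libraries were assigned to it. At the high end stood Ndufa7, at 154, 102, 173, 113 and 128 CPM against 109.7, 89.5, 113, 116 and 106 CPM (log2 fold change 0.32 ± 0.15, edgeR adjusted p = 0.204). It was highest in replicates 1 and 3, and its log2 fold change was 0.11 without them.

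The 7 assembly factors of complex I, which build the enzyme without staying in it, had the lowest median of the role groups of complex I with more than 2 members, -0.25, with 7 of 7 below 0. Without replicates 1 and 3 their median was -0.26, beside -0.25 for the core and -0.24 for the accessory subunits, so these groups hardly differed. For Ndufaf4 (chr4:24898083-24905001), whose promoter with the NRF1 string is printed above, the Fh1-/- day 10 libraries held 32.2, 35.6, 28.7, 28.8 and 32.3 CPM and the Fh1+/+ libraries 38.0, 40.0, 40.7, 44.8 and 51.1 CPM. The genotypes did not overlap, and replicates 1 and 3 were not apart from the other 3 (log2 fold change -0.45 ± 0.11, edgeR adjusted p = 0.0552, and -0.40 without replicates 1 and 3). Ndufaf6 (chr4:11051045-11076205) gave 14.6, 15.0, 11.4, 15.3 and 14.6 CPM against 27.2, 15.4, 20.2, 19.3 and 26.4 CPM. Here the genotypes were separated by a narrow margin, at Fh1+/+ replicate 2, and the Fh1+/+ libraries spread far more than the Fh1-/- libraries (log2 fold change -0.62 ± 0.17, edgeR adjusted p = 0.0710).

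The pair of Ndufa4, a complex IV subunit, and Ndufa4l2, a paralog known for its induction in hypoxia, differed from each other in level and in fold. Per kilobase of transcript, Fh1+/+ day 10 kidneys held 845 CPM of Ndufa4 and 5.74 CPM of Ndufa4l2. Ndufa4l2 (chr10:127514967-127517154) was at 0.614, 2.13, 0.639, 1.76 and 2.99 CPM in Fh1-/- day 10 libraries and at 5.07, 7.47, 4.09, 4.24 and 5.95 CPM in Fh1+/+ libraries, with no overlap and the lowest values in replicates 1 and 3. The log2 fold change of -1.71 ± 0.42 was the most negative among the 83 tested members, but with an edgeR adjusted p of 0.0588 it did not pass, and it was -1.21 without replicates 1 and 3. Ndufa4 was at 268 to 369 CPM against 322 to 464 CPM (-0.28 ± 0.14, edgeR adjusted p = 0.221).

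**Figure D3:**
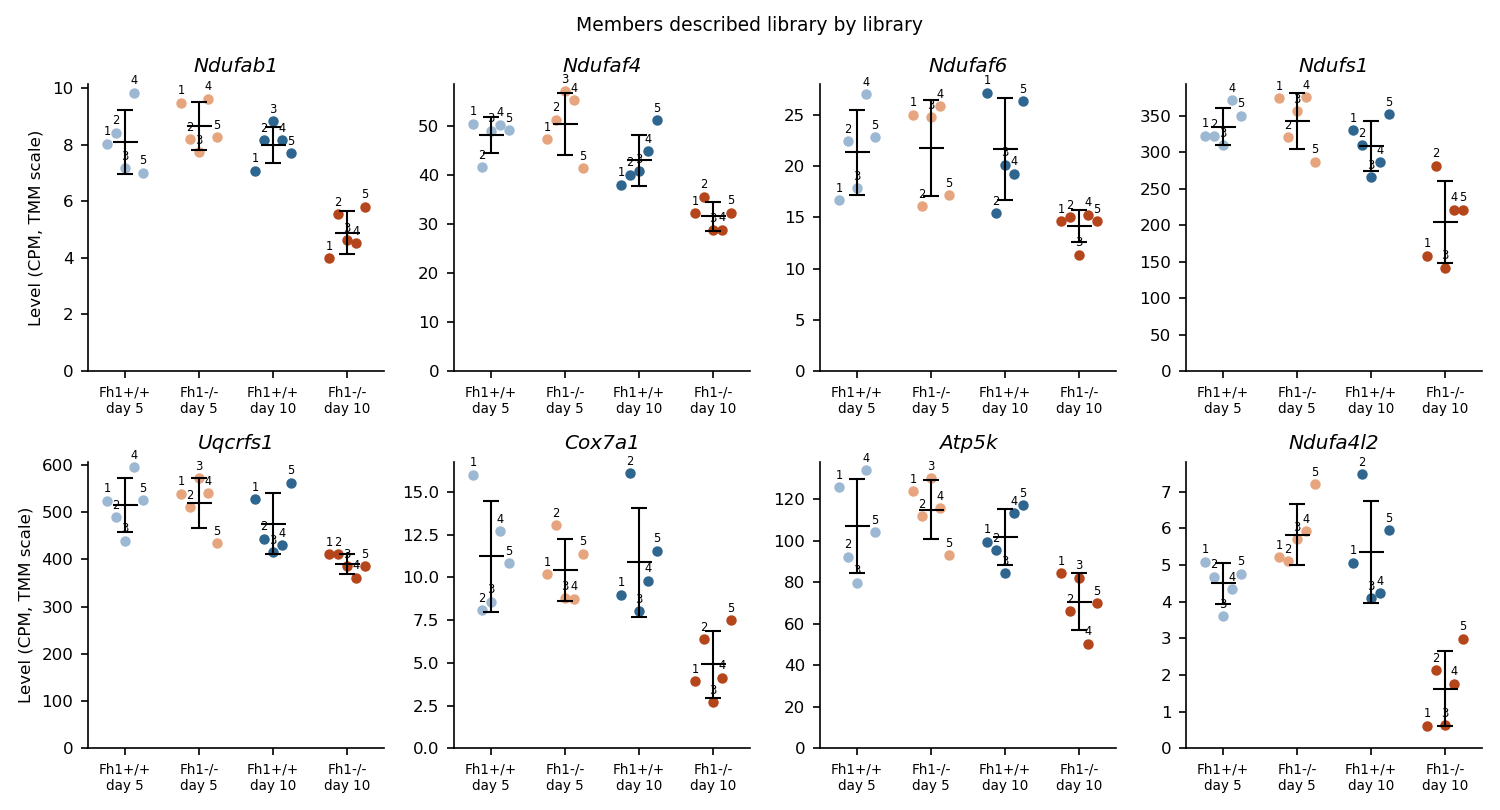
CPM (vertical axis, starting at 0) of Ndufab1, Ndufaf4, Ndufaf6, Ndufs1, Uqcrfs1, Cox7a1, Atp5k and Ndufa4l2 in each library by genotype and day, with the mean and SD of each group of 5. In all of these but Ndufs1 the Fh1-/- day 10 libraries lie below every Fh1+/+ day 10 library, and for Ndufa4l2 the Fh1-/- day 10 values run from 0.614 to 2.99 CPM.

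All 8 members of complex III, which passes electrons from ubiquinol to cytochrome c, had log2 fold changes below 0 at day 10, from -0.29 to -0.01, and from -0.48 to -0.12 without replicates 1 and 3. With all libraries the furthest was Uqcrfs1, the Rieske iron-sulfur protein (chr13:30540308-30545362), at 411, 412, 385, 361 and 385 CPM in Fh1-/- replicates and 528, 444, 415, 430.1 and 562.5 CPM in Fh1+/+ replicates. The libraries did not overlap, yet the gap between the highest Fh1-/- and the lowest Fh1+/+ library was narrow (-0.29 ± 0.12, edgeR adjusted p = 0.164, and -0.29 without replicates 1 and 3). Uqcrc2, a core protein of the matrix side, was at 461, 506, 429.8, 486 and 472 CPM against 579, 545, 517, 487 and 584 CPM, so that replicate 2 alone overlapped (-0.21 ± 0.11, edgeR adjusted p = 0.232, and -0.14 without replicates 1 and 3). Uqcr11, the smallest subunit, was at 108, 98.7, 124, 85.3 and 108 CPM against 124, 119, 102.5, 135 and 140.5 CPM (-0.25 ± 0.13, edgeR adjusted p = 0.223). In Uqcrq and Uqcr10, small subunits too, replicates 1 and 3 were the highest of the Fh1-/- libraries, with Uqcrq at 221, 138, 230.2, 116 and 146 CPM against 135 to 237 CPM and Uqcr10 at 279, 186, 299, 171 and 192 CPM against 185 to 281 CPM. Their log2 fold changes were -0.15 and -0.01 with all libraries. Without replicates 1 and 3 they were -0.48 and -0.29, and Uqcrq was the furthest of the complex. Uqcrc1, the other core protein, ran from 499 to 675 CPM against 544 to 683 CPM, highest in replicate 3 (-0.10 ± 0.13, edgeR adjusted p = 0.632, and -0.18 without replicates 1 and 3).

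In complex IV, which reduces oxygen, 9 of the 10 broadly expressed subunits were below 0, with a median of -0.13 and none past an unadjusted p of 0.05. Without replicates 1 and 3, 10 of 10 were below 0, with a median of -0.29 and 6 at an unadjusted p under 0.05. These 10 include Cox7c, whose counts are uncertain, with 369 reads over 20 libraries. Up to 53.0% of the 50-base stretches of a single coding transcript of it are shared with other genes. Cox5a was at 223 to 329 CPM against 249 to 359.6 CPM (-0.21 ± 0.15, edgeR adjusted p = 0.383, and -0.37 without replicates 1 and 3). Cox4i1, the main form of subunit 4, was the exception, at 860 to 1160 CPM against 920.1 to 1085 CPM (0.01 ± 0.13, edgeR adjusted p = 0.960, and -0.08 without replicates 1 and 3). The genes that stood out in complex IV were forms restricted to other tissues, all at low levels in kidney. Cox7a1, the heart and muscle form of subunit 7a (chr7:30184144-30186078), was at 3.93, 6.38, 2.70, 4.13 and 7.51 CPM in Fh1-/- day 10 libraries against 8.99, 16.1, 8.01, 9.80 and 11.6 CPM. The groups did not overlap, with the lowest value in replicate 3 (log2 fold change -1.14 ± 0.30, edgeR adjusted p = 0.0640, and -0.84 without replicates 1 and 3). Cox6a2, the muscle form of subunit 6a (chr7:128205435-128206387), had 4, 2, 1, 0 and 2 counts in the Fh1-/- day 10 libraries and 10, 20, 22, 9 and 8 counts in the Fh1+/+ day 10 libraries, too few for the filter of edgeR, and again with no overlap. Markers of muscle summed to at most 5.63 CPM in any day 10 library. Markers of fat, where Cox7a1 and Cox8b are also expressed, summed to 39.0 to 524 CPM in Fh1-/- day 10 libraries, highest in replicate 2. In Fh1+/+ day 10 libraries they summed to 55.1 to 386 CPM. Markers of fibroblasts, pericytes and smooth muscle summed to 122.9, 416.8, 123.8, 205.5 and 253.4 CPM in Fh1-/- day 10 replicates 1 to 5, against 280.3 to 541.7 CPM. Endothelial markers summed to 88.9, 340, 96.15, 359 and 478.5 CPM against 380.6 to 671.2 CPM. Thick ascending limb markers overlapped more (7090 to 17480 against 6185 to 12220 CPM). The part of these lists in the levels of Cox6a2, Cox7a1, Cox8b and Ndufa4l2 was not tested.

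Cox6b2, known as the testis form of subunit 6b (chr7:4751792-4753094), was the member with the highest fold at day 10. Its level was 21.1, 5.26, 27.1, 4.57 and 16.6 CPM in Fh1-/- replicates 1 to 5 and 4.65, 5.72, 11.5, 5.78 and 3.70 CPM in Fh1+/+ replicates 1 to 5. Replicates 1, 3 and 5 were above every Fh1+/+ library, while replicates 2 and 4 lay among them. The log2 fold change was 1.24 ± 0.51 (edgeR adjusted p = 0.155) and 0.51 without replicates 1 and 3. The same 3 libraries had a summed Y-linked level of 0.257 to 1.02 CPM, against 134 and 144 CPM in replicates 2 and 4, and with that level as a covariate the log2 fold change was 0.74 (edgeR adjusted p = 0.168). Cox7a2l, the supercomplex factor, was at 76.5 to 89.3 CPM against 64.7 to 86.8 CPM (0.16 ± 0.10, edgeR adjusted p = 0.288).

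Per kilobase of transcript, the broad form outweighed its tissue form in every pair in Fh1+/+ day 10 kidneys: 1330 against 1.19 CPM for Cox4i1 and Cox4i2, 839 against 1.05 CPM for Cox6a1 and Cox6a2, 875 against 14.4 CPM for Cox6b1 and Cox6b2, 402 against 24.8 CPM for Cox7a2 and Cox7a1, and 748 against 8.74 CPM for Cox8a and Cox8b. In Fh1-/- day 10 kidneys the order of each pair was the same, and Cox6b1 and Cox6b2 were at 740 and 34.3 CPM per kilobase. Cox4i2, a form responsive to oxygen in lung, was at 0.368 to 1.101 CPM against 0.742 to 1.01 CPM (-0.34 ± 0.30, edgeR adjusted p = 0.475, and -0.14 without replicates 1 and 3). Cox8b varied from 0.0551 to 7.37 CPM and from 0.0517 to 8.81 CPM within the genotypes at day 10, so that its log2 fold change of 0.32 ± 0.97, or 0.20 without replicates 1 and 3, says little. Cox7b2 had 3 counts over all 20 libraries and Cox8c had 0, where a count of 0 in a library allows up to 3 counts.

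**Figure D4:**
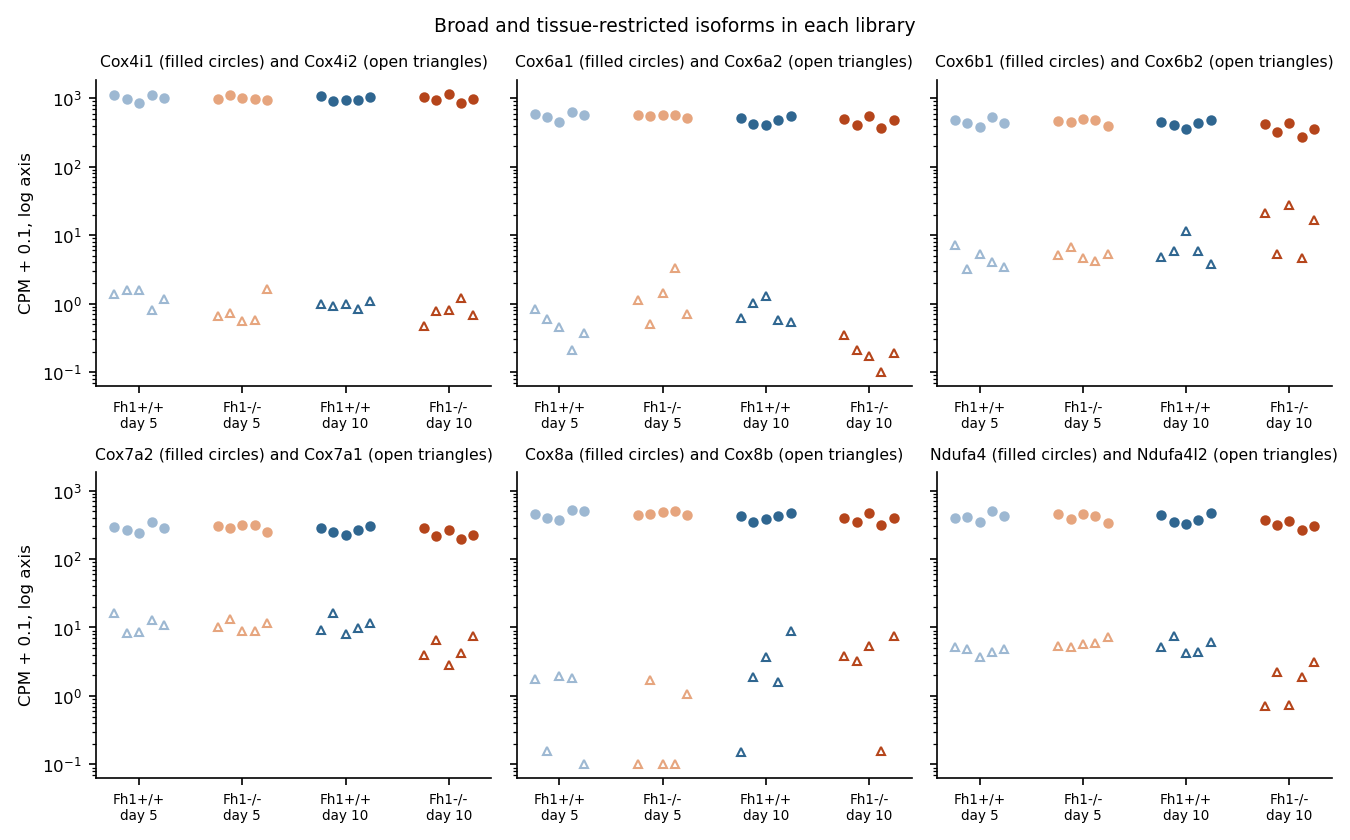
CPM plus 0.1 on a log axis for each broadly expressed subunit and its tissue forms, per library and group. The broad forms lie far above the tissue forms in all 4 groups, Cox7a1 and Ndufa4l2 are lower in the Fh1-/- day 10 libraries, and Cox6b2 is spread from 4.57 to 27.1 CPM there.

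For complex V, the 5 members of the F1 head, where ATP is made, were all below 0 at day 10 (median -0.22, from -0.28 to -0.02). Without replicates 1 and 3 all 5 were again below 0, with a median of -0.17. Atp5b, the catalytic beta subunit and the member with the highest level per kilobase (1830 CPM in Fh1+/+ day 10 kidneys), was at 2757, 3285, 2802, 3011 and 3094 CPM in Fh1-/- libraries and 3819, 3321, 3202, 3314 and 3842 CPM in Fh1+/+ libraries. Among the Fh1-/- libraries only replicate 2 reached into the Fh1+/+ range, and replicates 1 and 3 were the lowest (-0.23 ± 0.14, edgeR adjusted p = 0.289, and -0.15 without them). In the membrane part and stalk, Fo, 7 of 8 tested members were below 0 (median -0.18, and 8 of 8 with a median of -0.28 without replicates 1 and 3). Which of F1 and Fo had the lower median thus depended on these libraries. Atp5k, the e subunit, which holds ATP synthase dimers together (chr5:108433244-108434448), was at 84.3, 66.1, 82.3, 50.5 and 70.0 CPM against 99.5, 95.3, 84.4, 113 and 117 CPM. The genotypes were separated by a very narrow margin, with replicates 1 and 3 the highest of the Fh1-/- libraries rather than the lowest (-0.53 ± 0.15, edgeR adjusted p = 0.0746, and -0.70 without replicates 1 and 3). Atp5f1, the b subunit of the stalk, ran from 232 to 264 CPM against 253 to 341 CPM (-0.25 ± 0.11, edgeR adjusted p = 0.190). Atp5sl, outside the enzyme despite its symbol, was at 52.2 to 66.7 CPM against 66.0 to 73.2 CPM (-0.20 ± 0.09, edgeR adjusted p = 0.176, and -0.10 without replicates 1 and 3). Of the 3 genes for the c ring, which encode the same mature protein, Atp5g3 dominated at 1120 CPM per kilobase in Fh1+/+ day 10 kidneys, against 1.75 for Atp5g1 and 0.205 for Atp5g2. The last 2 values are uncertain, since up to 66.0% and 100% of the 50-base stretches of a single transcript (10.2% and 38.3% over their transcripts together) are shared with other genes. Atp5g3 had a log2 fold change of -0.14 ± 0.16 and Atp5g1 of 0.05 ± 0.27. Without replicates 1 and 3 these were -0.31 and -0.24.

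Counted over the members, 7 of 83 had every Fh1-/- day 10 library below every Fh1+/+ day 10 library: Ndufa4l2, Ndufab1, Ndufaf4, Ndufaf6, Uqcrfs1, Cox7a1 and Atp5k, where 3.68% of all genes tested had this order. None had the opposite order, which 3.96% of all genes had. Member by member, the Fh1-/- day 10 libraries did not behave alike. Replicate 4 was below every Fh1+/+ library for 68 of 83 members and above for 1, and replicates 2 and 5 for 44 and 41 below and 0 and 3 above. Replicates 1 and 3 had members on both sides: below for 21 and 24 and above for 14 and 21. The share of all genes outside the Fh1+/+ range was not counted for any library. These counts therefore describe the members only and cannot be set beside a general rate. The 9 members above the Fh1+/+ range in both were Ndufa2, Ndufa5, Ndufa7, Ndufb2, Ndufb6, Ndufb8, Ndufs4 and Ndufs6 of complex I, all accessory subunits, and Cox6b2. Libraries of the Fh1+/+ day 10 group also differed over many of the 83 members at once. Replicate 3 was below the other 4 for 47 of the 83 members and replicate 5 above the other 4 for 63. For these counts, too, the share over all genes was not counted. Over the 20 libraries, the mean log2 levels of complexes I, III and V had Pearson correlations of 0.975 to 0.989 with each other and of 0.445 to 0.501 with complex IV, whose mean includes the scarce tissue forms. These points share libraries, depth and scaling, so the values are a description.

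**Figure D5:**
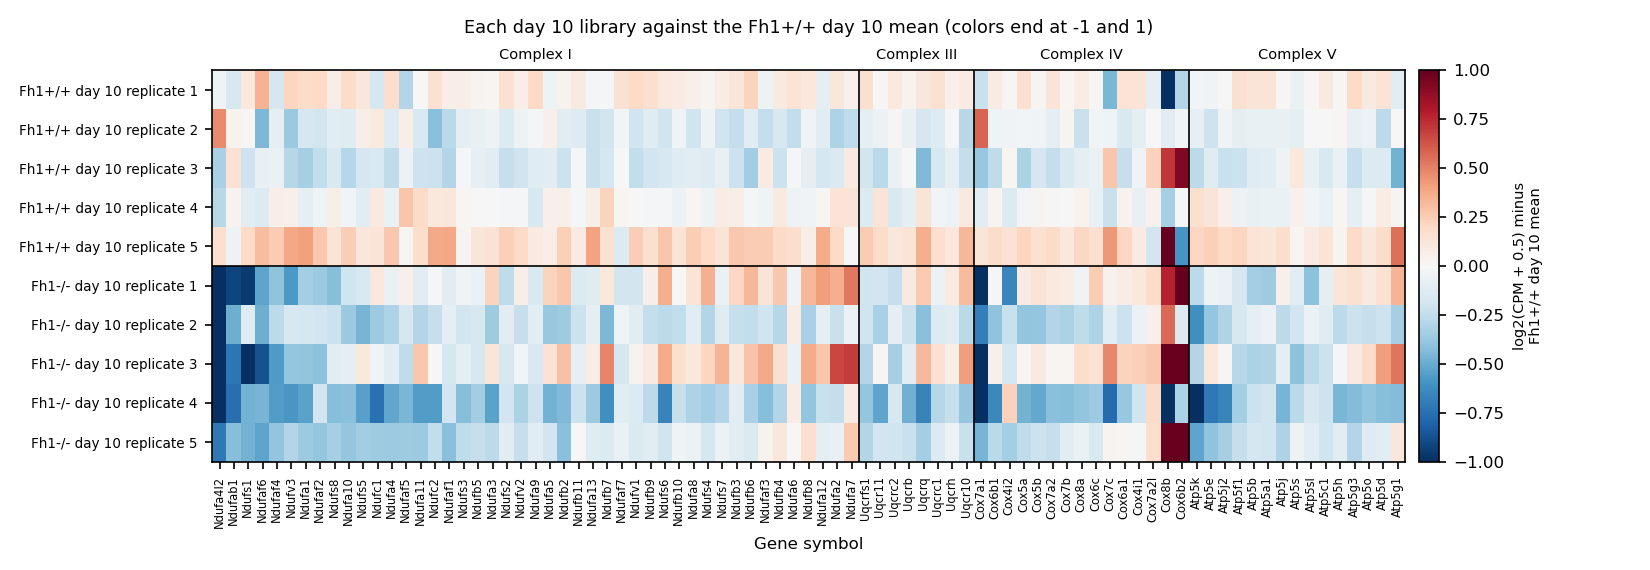
Log2 level of each of 83 members (log2 of CPM plus 0.5) minus its Fh1+/+ day 10 mean, in the 10 day 10 libraries, with colours ending at -1 and 1. Fh1-/- replicate 4 is below the Fh1+/+ libraries almost throughout (68 of 83 members), while replicates 1 and 3 mix members below (21 and 24) and above (14 and 21). The same shares over all genes were not counted.

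At day 5, the levels of the chain did not separate the genotypes. The sum over all members was 23500 ± 1427 CPM in Fh1-/- libraries and 23270 ± 2291 CPM in Fh1+/+ libraries (SD, n = 5). The median log2 fold change over 84 tested members was 0.01, with 35 below 0, against a median of -0.01 and 52.3% below 0 over all genes. In this comparison edgeR called 0.0347% of 14404 genes and 0 members, DESeq2 called 0.177% of 19169 genes and 0 members, and at an unadjusted p under 0.05 there were 0 members lower and 3 higher (2.37% and 2.42% of all genes). Those 3 were Ndufc2, Cox6a2 and Ndufa4l2. Ndufc2, a small subunit of the membrane arm of complex I (chr7:97400003-97407802), was at 144, 119.6, 149, 147 and 109 CPM in Fh1-/- day 5 libraries and 111, 121, 92.3, 94.3 and 85.0 CPM in Fh1+/+ day 5 libraries, with overlap (log2 fold change 0.39 ± 0.12, edgeR adjusted p = 0.760). Ndufa4l2 was at 5.21, 5.10, 5.70, 5.93 and 7.19 CPM against 5.09, 4.68, 3.61, 4.34 and 4.77 CPM. It was the member with no overlap at day 5, in the opposite direction to day 10 and by a very narrow margin (0.36 ± 0.15, edgeR adjusted p = 1), where 0.548% of all genes had no overlap in that direction. Ndufc1, the partner of Ndufc2 in the membrane arm, ran from 60.8 to 71.5 CPM against 45.7 to 69.0 CPM (0.20 ± 0.12, edgeR adjusted p = 1). In complexes III and V the smallest unadjusted p-values belonged to differences near 0, 0.04 ± 0.09 for Uqcr10, 0.04 ± 0.11 for Uqcrq, 0.06 ± 0.08 for Atp5s, 0.07 ± 0.10 for Atp5e, the epsilon subunit of F1, and 0.09 ± 0.14 for Atp5k. Cox6a2 had 24, 9, 23, 54 and 13 counts against 15, 9, 7, 2 and 5 counts (1.65 ± 0.60, edgeR adjusted p = 0.918). Next in complex IV by p were Cox4i2, lower on average at 0.465 to 1.522 CPM against 0.714 to 1.485 CPM (-0.72 ± 0.38, edgeR adjusted p = 1), and Cox8b, at 0 in 3 Fh1-/- libraries and 1 Fh1+/+ library (-0.99 ± 1.18, edgeR adjusted p = 1). The subunits of the fixed set were within 0.04 of 0 on the log2 scale, namely Ndufs1, Ndufv1, Uqcrc1, Uqcrfs1, Cox5a and Atp5b, with values from -0.04 to 0.03.

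The test of the difference between the days in the genotype difference, over all 20 libraries, called 0.0335% of 14934 genes and 0 of 84 members. At an unadjusted p under 0.05, edgeR had 14 members more negative at day 10 than at day 5 and 0 more positive (8.4% and 11.8% of all genes), and DESeq2 called 3 members (Ndufa4l2, Ndufab1 and Cox6a2), all more negative at day 10, where it called 0.487% of genes in that direction. Over the members the median was -0.18, with 75 of 84 below 0, against -0.01 over all genes. Cox6a2 had the largest value, -4.42 ± 0.90 on the log2 scale (edgeR adjusted p = 0.0307), on counts that were higher in Fh1-/- at day 5 and lower at day 10. Ndufa4l2 had -2.07 ± 0.44 (edgeR adjusted p = 0.0357), Ndufab1 -0.80 ± 0.18 (0.0407) and Ndufaf4 -0.51 ± 0.14 (0.0711), each an edgeR adjusted p. Without Fh1-/- day 10 replicates 1 and 3, 29 members were more negative at an unadjusted p under 0.05 (5.93% of all genes) and 0 were called (0.0197% of all genes).

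Between the days, the members of Fh1+/+ kidneys had a median log2 fold change of -0.08 for day 10 against day 5 (73 of 83 below 0, against 0.01 over all genes), with 0 members at an unadjusted p under 0.05 in edgeR (1.98% of genes lower and 1.99% higher) and 0 called by either tool, as for all genes, of which 0% were called. In Fh1-/- kidneys the median was -0.26 (78 of 83 below 0, against 0.01 over all genes). There edgeR called 0.576% of 14235 genes and 0 members, with 39 members lower and 3 higher at an unadjusted p under 0.05 (14.4% and 17.9% of all genes). DESeq2 called 8 members lower at day 10, Ndufa4l2, Ndufab1, Ndufaf4, Ndufaf6, Ndufs1, Cox6a2, Cox7a1 and Atp5k, and Cox6b2 higher, where it called 3.49% and 5.14% of genes. By edgeR, Ndufaf4 came nearest to a call, at 47.3, 51.2, 56.97, 55.1 and 41.3 CPM at day 5 and 28.7 to 35.6 CPM at day 10 (log2 fold change -0.68 ± 0.11, edgeR adjusted p = 0.0114). In Fh1-/- kidneys 25 members had every day 10 library below every day 5 library (6.04% of all genes), 15 in complex I, 3 in complex III, 1 in complex IV and 6 in complex V, and 1, Cox7a2l, had the opposite order (6.22% of all genes). Further members with the smallest p in their complexes were Ndufab1 (-0.82), Ndufs8 (-0.45), Uqcrfs1 (-0.41), Uqcr11 (-0.38), Uqcrc2 (-0.29), Cox7a1 (-1.08), Cox6b2 (1.54), Atp5k (-0.70), Atp5f1 (-0.34) and Atp5sl (-0.33), with edgeR adjusted p-values from 0.0143 for Ndufab1 to 0.0836 for Uqcrc2. Cox7a2l was at 59.4 to 73.0 CPM at day 5 and 76.5 to 89.3 CPM at day 10 (0.33 ± 0.08, edgeR adjusted p = 0.0337). Fh1-/- libraries serve both in this comparison and in the genotype comparisons, so the lists share samples. Without Fh1-/- day 10 replicates 1 and 3, 70 of 84 members were lower at an unadjusted p under 0.05 and 1 higher (14% and 13.5% of all genes), with 0 called (0.144% of all genes) and a smallest edgeR adjusted p of 0.0155.

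Genes of the same pathway outside the symbol rule were counted at day 10 from fixed lists, with 0 of them called by edgeR and, at an adjusted p under 0.01 with the fold threshold, 0 by DESeq2. At an unadjusted p under 0.05, edgeR had 11.9% of all genes tested lower and 15.1% higher. In these short lists, 1 gene of 12 lower or 2 of 14 higher is thus close to the share over all genes. Of 12 genes of complex II and the electron carriers, 11 were below 0 (median -0.24, and -0.19 without replicates 1 and 3), 1 at an unadjusted p under 0.05: Pdss1, which makes the tail of coenzyme Q, at -0.54 ± 0.19 (edgeR adjusted p = 0.108). Of 39 other assembly factors, 29 were below 0 (median -0.16, and 33 with a median of -0.21 without replicates 1 and 3), with 11 lower and 2 higher at an unadjusted p under 0.05. Among them Uqcc1, for complex III, was at 60.9 to 66.8 CPM against 71.7 to 77.9 CPM (-0.26 ± 0.07, edgeR adjusted p = 0.0736). Its libraries did not overlap, an order that 3.68% of all genes had. Acad9, for complex I, had -0.73 ± 0.23 (edgeR adjusted p = 0.0922, and -0.40 without replicates 1 and 3). Of 14 regulators, 8 were below 0 (median -0.10), 1 lower and 2 higher at an unadjusted p under 0.05. The direction of this median turned without replicates 1 and 3, where 6 were below 0 and the median was 0.07. The 2 higher ones were Pprc1, a coactivator of the PGC-1 family, at 42.4, 15.6, 46.5, 24.5 and 19.1 CPM in Fh1-/- against 10.1 to 17.1 CPM in Fh1+/+, with overlap at replicate 2 (1.06 ± 0.31, edgeR adjusted p = 0.0766, and 0.49 without replicates 1 and 3), and Ppara, the fatty acid receptor (0.57 ± 0.16, edgeR adjusted p = 0.0755). Of 16 other mitochondrial genes, 9 were below 0 (median -0.02, and 11 with a median of -0.13 without replicates 1 and 3) and 3 were lower at an unadjusted p under 0.05, with Phb, an inner membrane scaffold, at -0.54 ± 0.14 (edgeR adjusted p = 0.0663). At day 5 the medians of these 4 lists lay between 0.0002 and 0.007, with 0 genes at an unadjusted p under 0.05 (2.37% of all genes lower and 2.42% higher). All 16 tested members with the NRF1 string had a log2 fold change below 0 at day 10 (median -0.13), beside 74 of 83 for all tested members. This did not hold without replicates 1 and 3, where Ndufa6 among them was at 0.06.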

How the data were processed

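Kidney RNA was sequenced in 20 libraries, 5 in each of 4 groups. The deposited values are raw counts per gene symbol, not normalized and not pooled. Per the methods of the study and the labels, the authors used STAR 2.6.0c and GRCm38 for stranded polyA libraries, filtered poorly mapped reads and adapters by Cutadapt, and made gene counts by Rsubread on GENCODE models. The sources used here do not give whether strand was used in counting, so overlapping antisense genes cannot be told apart. Members and lists were chosen with earlier results of these data known. The tests were those of edgeR 4.0.16 (R 4.3.3, TMM, filterByExpr, glmQLFit, glmQLFTest, Benjamini-Hochberg over all genes tested), and a gene rose or fell at an adjusted p under 0.01 with a log2 fold change beyond 0.58 in size, as in the study. The genotypes were compared within each day (10 libraries), the days within each genotype (10 libraries) and the days' differences over 20 libraries. Scripts were tested on simulated counts. Levels are TMM-scaled CPM, in complex means log2 CPM with a prior count of 2. Positions are those of GENCODE vM21 on GRCm38. Values per kilobase use the median length of the protein-coding transcripts. Reads shared between copies were estimated from 50-base stretches: of 87 members with such transcripts, 49 shared none with another gene and 9 shared over 50% in at least 1 transcript.

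Members given in full were those with the smallest unadjusted p per complex, the isoform pairs, and Ndufs1, Ndufv1, Uqcrc1, Uqcrfs1, Cox5a and Atp5b, with the others by counts. Ndufaf6, Ndufa7 and the members listed for replicates 1 and 3 were singled out after their values were seen. Alternatives were DESeq2 1.42.0, RLE scaling, a fit with the replicate number as block, the summed Y-linked level as covariate, no filter or 1 CPM in 5 libraries, a threshold of 0.05 on the adjusted p alone, a single fit of 20 libraries, medians in place of means for the complex levels, and leaving out each library. Leaving out Fh1-/- day 10 replicates 1 and 3 and dropping the TMM factor were added after seeing the data. In 40 pairs of libraries of a group, chi-square values per degree of freedom ran from 7.49 to 373.5, so none was a repeated library. The limit on a count of 0 covers counting error only.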

Additional observations from a re-analysis of the deposited data

Results flagged for a closer look

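In groups of 5 libraries, a highest or lowest value was compared with its nearest neighbour by Dixon's criterion (gap over range above 0.71). Of 160 groups checked over named members and complex means, 7 values passed, where chance gives about 1 in 20, and none of the 7 was in the Fh1-/- day 10 group. The criterion takes the gap to the nearest value, so libraries that stand apart together, such as Fh1-/- day 10 replicates 1 and 3, can escape it. The lack of flagged values in that group thus does not show that its libraries were alike. In Fh1-/- day 5 replicate 5, Cox4i2 was at 1.522 CPM (nearest 0.6436), Cox6a1 at 516.1 CPM (nearest 560.9) and the mean log2 CPM of complex III at 7.847 (nearest 8.041). In Fh1+/+ day 10 replicate 3, Cox6b2 was at 11.49 CPM (nearest 5.775). In Fh1+/+ day 5 libraries, Atp5g2 stood at 0.6591 CPM in replicate 4 (nearest 0.2494), Cox7a2l at 78.02 CPM in replicate 1 (nearest 66.23) and Ndufaf4 at 41.59 CPM in replicate 2 (nearest 48.97). Atp5g2 had 90 reads over 20 libraries, so its value rests on few counts.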

How the results depend on the processing

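Counts of called members depended on the tool and the threshold. At day 10 the count of members that fell went from 0 to 4 by DESeq2, 1 at an adjusted p under 0.05 whatever the fold, and 3 in a single fit of all 20 libraries (Ndufab1, Ndufa4l2 and Cox7a1). For the difference between the days it went from 0 to 3 by DESeq2, 3 at an adjusted p under 0.05, and 0 to 1 when each library was left out (1 without Fh1-/- day 10 replicate 2). Between the days in Fh1-/- kidneys, the members that fell went from 0 to 8 by DESeq2, 16 at an adjusted p under 0.05, 1 with the Y-linked covariate, and 0 to 3 when each library was left out (3 without Fh1-/- day 10 replicate 2), and the members that rose from 0 to 1 by DESeq2 and to 1 at an adjusted p under 0.05. The cause was not tested. For the threshold of 0.05, the covariate, the single fit and leaving out each library, the share of all genes called was not counted. Those counts of members thus cannot be set beside a general rate. Over all genes, DESeq2 called 831 at day 10 against 8 by edgeR. With no TMM factor the day 10 difference in mean log2 CPM was -0.39, -0.33, -0.37 and -0.37 for complexes I, III, IV and V, against -0.21, -0.16, -0.20 and -0.20 with it, and the median of all genes shifted to -0.19 from -0.02. The sign of members near 0 at day 10 turned: with the Y-linked covariate Cox4i1 (-0.0012) and Atp5g1 (-0.0151), without Fh1-/- day 10 replicates 1 and 3 Cox4i1 (-0.0757) and Atp5g1 (-0.2447), and when each library was left out Cox4i1 (-0.0354 to 0.063), Atp5g1 (-0.0852 to 0.2302), Cox6a1 (-0.1178 to 0.0178) and Cox8b (-0.0332 to 1.1766). At day 5 the same held for Uqcrc1 (-0.0098 to 0.0802) and Uqcrq (-0.0168 to 0.1214). The replicate numbers did not pair the libraries (correlations from -0.268 to 0.095 at day 10 and -0.51 to 0.33 at day 5, own number best for 1 of 5 libraries on each day), and with the replicate block 0 members were called at day 10.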
